A study of Mus musculus with 16 samples.

Results

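The 8 genes described here, Gch1, Pcbd1, Qdpr, Tat, Hpd, Hgd, Gstz1 and Fah, encode enzymes that break down phenylalanine and tyrosine or that make and recycle the cofactor of the opening step. They were chosen by their known place in the pathway, but with earlier results of these data known, and are 8 of the 53714 genes counted. All 8 were among the 13905 genes that passed the filter on low counts. The libraries were made from liver of male mice, 9 weeks old, whose strain the labels give as C57BL/6 Slc25a47tm1c(EUCOMM)Hmgu in every group. Slc25a47 encodes a mitochondrial carrier protein of the liver. The genotypes were Slc25a47hep-/-, called KO below, and Slc25a47hep+/+, called WT. Each genotype was sampled fed on chow or after an overnight fast, so that there were 4 groups with 4 libraries in each. The sources used here do not name the transgene or promoter behind the hepatocyte deletion, and bulk liver RNA holds every cell type of the organ. The labels number the libraries without saying that each came from its own mouse, so the p-values measure the spread between these libraries.

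Phenylalanine enters the pathway in the liver by conversion to tyrosine, a reaction that uses tetrahydrobiopterin. GTP cyclohydrolase (Gch1) starts the synthesis of that cofactor, and pterin carbinolamine dehydratase (Pcbd1) and dihydropteridine reductase (Qdpr) return it to its active form. Tyrosine aminotransferase (Tat) then removes the amino group of tyrosine, and Hpd, Hgd, Gstz1 and Fah carry the carbon skeleton through homogentisate and maleylacetoacetate to fumarate and acetoacetate. Tat is a textbook gene of the fasting liver, known to respond to glucocorticoids and cyclic AMP.

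Promoter windows of RefSeq on build GRCm38.p6, each with 250 bases before and 50 after a transcription start, matched all 8 genes, with 9 windows because Gstz1 has 2. The 4 printed below belong to genes on which the results turn. Qdpr was lower in KO and in fasted livers. Tat had the largest rise on fasting in KO livers, and Hgd had the largest fall in KO after the fast. Pcbd1 encodes a protein that is also the dimerization cofactor of the transcription factor HNF1. The printed windows read 5′ to 3′ on the strand of the gene, and capitals mark matches, on either strand, to the motifs named afterwards. The windows lie at chr5:45450180-45450479 on the minus strand (Qdpr), chr8:109990186-109990485 on the plus strand (Tat), chr16:37579903-37580202 on the plus strand (Hgd) and chr10:61089081-61089380 on the plus strand (Pcbd1).
Qdpr: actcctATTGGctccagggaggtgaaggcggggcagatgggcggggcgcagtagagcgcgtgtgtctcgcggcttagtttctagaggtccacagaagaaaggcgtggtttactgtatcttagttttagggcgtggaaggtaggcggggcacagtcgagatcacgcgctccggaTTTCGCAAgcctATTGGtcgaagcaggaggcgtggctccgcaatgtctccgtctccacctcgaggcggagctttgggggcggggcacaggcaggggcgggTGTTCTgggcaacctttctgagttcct
Tat: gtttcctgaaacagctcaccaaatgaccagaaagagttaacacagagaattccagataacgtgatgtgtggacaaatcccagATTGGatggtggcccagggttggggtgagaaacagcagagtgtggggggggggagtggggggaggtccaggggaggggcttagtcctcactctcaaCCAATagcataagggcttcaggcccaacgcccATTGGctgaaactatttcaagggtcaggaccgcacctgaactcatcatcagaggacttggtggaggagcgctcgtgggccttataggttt
Hgd: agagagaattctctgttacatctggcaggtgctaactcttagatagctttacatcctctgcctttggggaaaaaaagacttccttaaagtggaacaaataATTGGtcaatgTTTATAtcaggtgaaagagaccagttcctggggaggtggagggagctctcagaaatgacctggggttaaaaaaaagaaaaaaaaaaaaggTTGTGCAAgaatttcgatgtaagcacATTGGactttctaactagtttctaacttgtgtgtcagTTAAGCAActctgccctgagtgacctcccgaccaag
Pcbd1: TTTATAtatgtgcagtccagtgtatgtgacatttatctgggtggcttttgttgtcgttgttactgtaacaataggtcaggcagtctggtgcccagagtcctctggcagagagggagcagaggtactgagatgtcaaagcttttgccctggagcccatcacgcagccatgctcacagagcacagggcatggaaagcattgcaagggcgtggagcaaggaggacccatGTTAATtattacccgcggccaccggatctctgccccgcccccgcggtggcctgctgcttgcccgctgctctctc

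The CCAAT box, searched as CCAAT, was in 6 of the 9 windows and in 37.4% of all 32851 windows of this length. The Tat window held 3 matches to it, and the Qdpr and Hgd windows held 2 each. The TATA box TATAAA was in 3 of 9 windows (13.6% of all windows), among them Hgd, and the C/EBP site TTGCNNAA was in 2 of 9, those of Qdpr and Hgd (10.8%). The HNF1 motif GTTAAT was in 1 window, that of Pcbd1, beginning 24 bases before the start (7.1% of all windows). The glucocorticoid receptor motif AGAACA was in 1 window, that of Qdpr (19% of all windows). No window held the HNF4 site CAAAGTCCA (0.475% of all windows), the forkhead sites TGTTTAC (3.65%) and TGTTTGC (5.07%), the cyclic AMP response element TGACGTCA (1.79%) or the C/EBP-ATF site TGATGNAA (3.97%). The motifs overlapped at no marked position. These are matches of letters in short windows, and no binding was measured.

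The libraries held between 19609584 and 27349613 reads assigned to genes. Levels are given in CPM, the reads of a gene scaled to a common library size with TMM factors, and log2 fold changes come from edgeR's quasi-likelihood test, with adjusted p by Benjamini-Hochberg over the 13905 genes and a threshold of 0.05. Slc25a47, read first as a check of the labels, averaged 636.5 ± 154 CPM in fed WT and 126 ± 32.3 in fed KO (SD, n = 4), and 949.4 ± 129 in fasted WT and 261.4 ± 77.1 in fasted KO. Its KO libraries lay below every WT library in both states. The 8 hepatocyte markers summed to 86420 to 120600 CPM in fed KO and 126700 to 131100 in fed WT. In fasted livers the sums overlapped, at 113700 to 133500 CPM in KO and 97060 to 140600 in WT. Of the 8 markers, 5 were lower and 1 higher in KO in each state. Of all tested genes, 16.9% were lower and 14.0% higher in fed KO, and 14.5% and 13.8% in fasted KO. Stellate cell markers moved the other way, with 6 of 8 higher in fed KO and 4 of 8 higher in fasted KO and a summed level of 469.8 to 530.2 CPM in fed KO against 319.7 to 381.1 in fed WT; their part in the results below was not tested. In bulk liver, fewer hepatocytes, less RNA per hepatocyte and a change in the expression of the marker genes themselves cannot be told apart. Pancreatic acinar markers reached a sum of 1619 CPM in replicate 2 and 449.6 CPM in replicate 4 of the fasted WT group, while no other library exceeded 71.22 CPM.

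Together the 8 genes took 0.615% to 0.967% of all gene reads, and Tat alone supplied 25% to 52.8% of these. To compare genes, CPM was divided by the length of the merged exons in kilobases (kb). In fed WT livers Tat stood highest at 1152 ± 152 CPM per kb (SD, n = 4), followed by Hpd at 813.7 ± 72.5. Hgd at 281.2 ± 17.3, Fah at 279.8 ± 8 and Pcbd1 at 243.9 ± 14.2 came next, and Hgd and Fah did not differ beyond their spread. Qdpr had 212.3 ± 12.4 and Gstz1 had 142.8 ± 3.5 CPM per kb. Gch1, the entry enzyme of cofactor synthesis, was lowest at 18.49 ± 0.765. Merged exons include long untranslated ends, 6.251 kb in all for Gch1 and 5.088 kb for Gstz1, which lowers their values per kb.

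**Figure D1:**
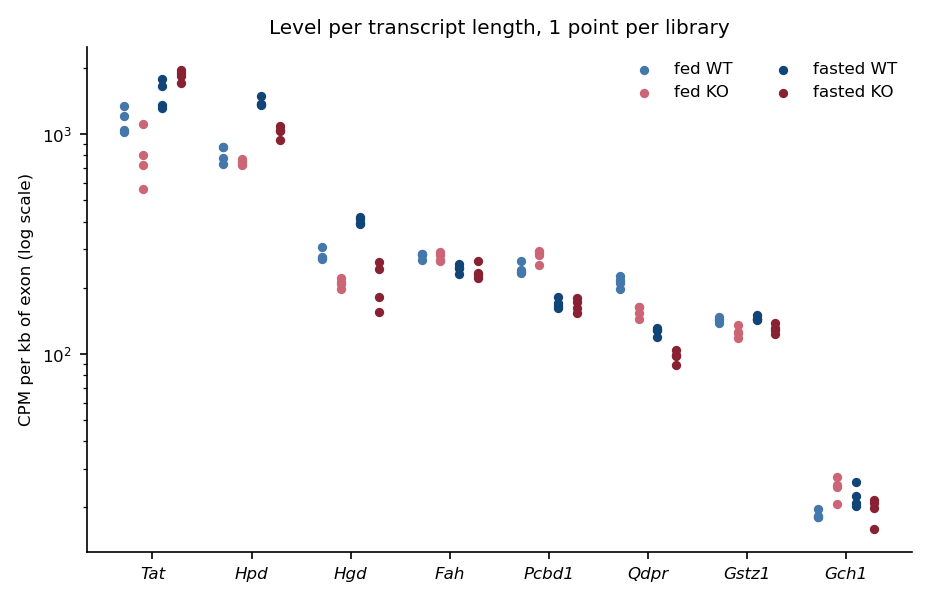
Level of each gene per kilobase of merged exons (CPM per kb, log axis) in the 4 groups; each point is a library. Tat and Hpd stand above the other 6 genes in every group, and Gch1 is lowest in every group.

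The cofactor genes did not move together in fed KO livers: Qdpr fell, while Gch1 and Pcbd1 rose. Qdpr had 403.2, 389.1, 351.1 and 374.8 CPM in the fed WT libraries and 257.6, 292.2, 273.4 and 292.5 in fed KO. All fed KO libraries lay below all fed WT libraries, and the log2 fold change was -0.44 with SE 0.07 (edgeR adjusted p = 0.000117). Gch1 had 112.5, 122.7, 113.3 and 113.8 CPM in fed WT and 155.0, 129.4, 172.6 and 158.8 in fed KO. These groups did not overlap either, and the change was 0.41 ± 0.10 on the log2 scale (edgeR adjusted p = 0.00466). Pcbd1 was a smaller case: 216.4, 196.1, 191.5 and 193.0 CPM in fed WT against 207.4, 230.8, 238.6 and 240.8 in fed KO. The highest fed WT library exceeded the lowest fed KO library, and the log2 fold change was 0.20 ± 0.07 (edgeR adjusted p = 0.0355). That call was lost on leaving out any of 6 of the libraries, fed WT replicates 2, 3 and 4 and fed KO replicates 2, 3 and 4, with adjusted p of 0.0549 to 0.0963.

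Among the enzymes that degrade tyrosine, Hgd, Tat and Gstz1 fell in fed KO livers, and Hpd and Fah did not pass the test. Homogentisate dioxygenase, encoded by Hgd, opens the aromatic ring. Its gene had 712.4, 707.2, 719.1 and 802.6 CPM in fed WT and 517.5, 540.8, 552.6 and 580.3 in fed KO. The groups were apart, with a log2 fold change of -0.42 ± 0.12 (edgeR adjusted p = 0.0118). Tat had 2449, 2500, 2923 and 3217 CPM in fed WT and 1350, 2682, 1926 and 1741 in fed KO. Fed KO replicate 2 lay above the lowest 2 fed WT libraries and the other 3 lay below them all. The change of Tat was -0.53 ± 0.16 on the log2 scale (edgeR adjusted p = 0.0195), and it missed the threshold without fed WT replicate 4, fed KO replicate 1 or fed KO replicate 4, at adjusted p of 0.0528 to 0.0611. Gstz1, the maleylacetoacetate isomerase, ranged from 704.1 to 745.7 CPM in fed WT and from 600.7 to 688.7 in fed KO (log2 fold change -0.18 ± 0.07, edgeR adjusted p = 0.0404). Leaving out any 1 of 7 libraries, all but fed KO replicate 2 among those compared, ended that call, with adjusted p of 0.0537 to 0.126. With no filter on low counts, the calls of Pcbd1, Tat and Gstz1 in fed KO were lost. Hpd, the dioxygenase that makes homogentisate, had a log2 fold change of -0.12 ± 0.08 (edgeR adjusted p = 0.228). For Fah, the hydrolase of the last step, it was -0.02 with adjusted p = 0.876.

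In all, 2 of the 8 genes were higher and 4 were lower in fed KO, against 14.0% of all tested genes called higher and 16.9% called lower. Their median log2 fold change was -0.15, and that of all genes was -0.01. TMM assumes that most genes do not differ, and the KO libraries had the larger TMM factors. With library totals as the only scaling the median of all genes moved to 0.21 in fed livers and 0.20 in fasted livers, and the calls over all genes in fed livers went from 1948 higher and 2351 lower to 4886 higher and 915 lower. Under that scaling Pcbd1, Gch1 and Fah were called higher in fed KO, at log2 fold changes of 0.42, 0.64 and 0.20, and Qdpr stayed lower at -0.22. Tat at -0.31 and Hgd at -0.20 then missed the threshold, with edgeR adjusted p of 0.133 and 0.144, and Gstz1 turned to 0.04.

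**Figure D2:**
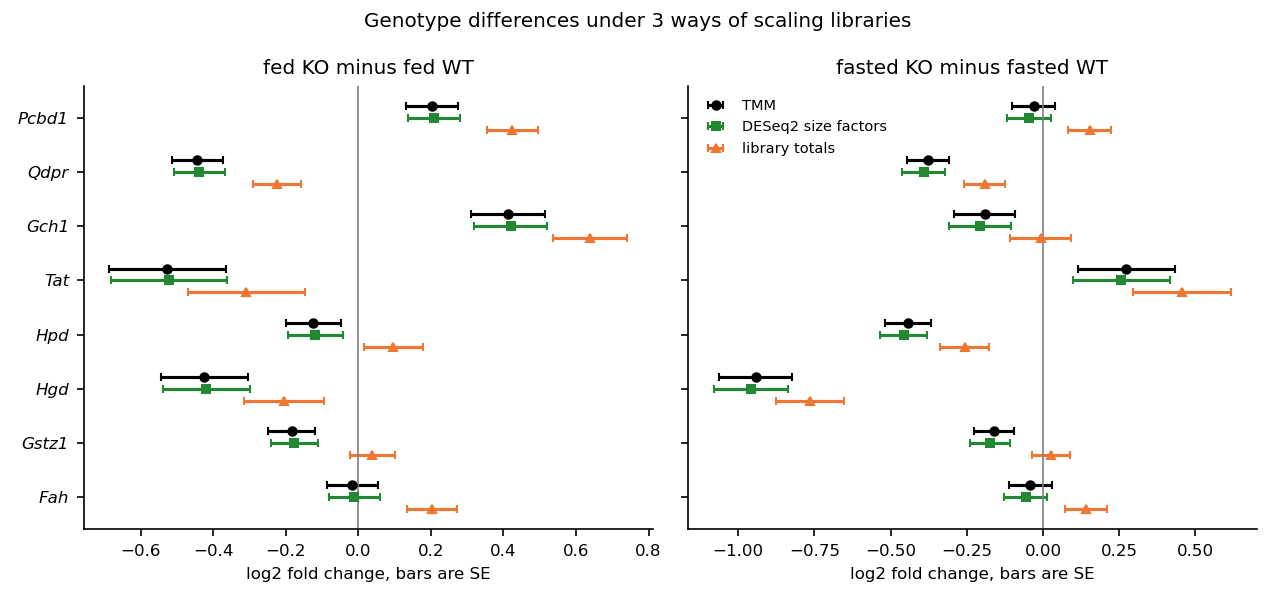
Log2 fold change of each gene between KO and WT in fed (left) and fasted (right) livers under TMM, DESeq2 size factors and library totals; bars are SE. TMM and size factors lie close together, and library totals move every gene towards higher values in KO.

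After the overnight fast, Hgd, Hpd and Qdpr were lower in KO and none of the 8 genes was called higher. The largest difference was that of Hgd, which had 1034, 1094, 1079 and 1014 CPM in fasted WT and 682.4, 635.8, 472.5 and 404.4 in fasted KO. No fasted KO library came near the WT range, but the 4 were spread widely. The KO level was 0.5201 times that of WT, a log2 fold change of -0.94 ± 0.12 (edgeR adjusted p = 1.51e-05). Hpd had 2884, 3164, 2916 and 2907 CPM in fasted WT and 2316, 2187, 2006 and 2232 in fasted KO. These groups did not overlap, and the change was -0.44 ± 0.08 on the log2 scale (edgeR adjusted p = 0.000276). Qdpr had 228.4, 234.5, 229.4 and 213.8 CPM in fasted WT and 186.2, 176.7, 159.8 and 175.1 in fasted KO. It too was apart in every library, with a log2 fold change of -0.38 ± 0.07 (edgeR adjusted p = 0.000541), close in size to its change in fed livers.

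The other 5 genes did not pass the test in fasted livers. Tat was at 3271, 4276, 3177 and 3983 CPM in fasted WT and at 4562, 4402, 4090 and 4712 in fasted KO, groups that overlapped (log2 fold change 0.27 ± 0.16, edgeR adjusted p = 0.221). With library totals alone it was 0.46 and called higher (edgeR adjusted p = 0.035). Gch1 had -0.19 ± 0.10 with edgeR adjusted p = 0.168, and Gstz1 had -0.16 ± 0.07 with 0.0748. Pcbd1 at -0.03 and Fah at -0.04 were close to 0. Of all tested genes, 13.8% were called higher and 14.5% lower in fasted KO, beside 0 and 3 of these 8, and the median of the 8 was -0.18 against 0.01 for all genes. Hgd, Hpd and Qdpr were called lower with library totals too, at -0.76, -0.26 and -0.19.

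**Figure D3:**
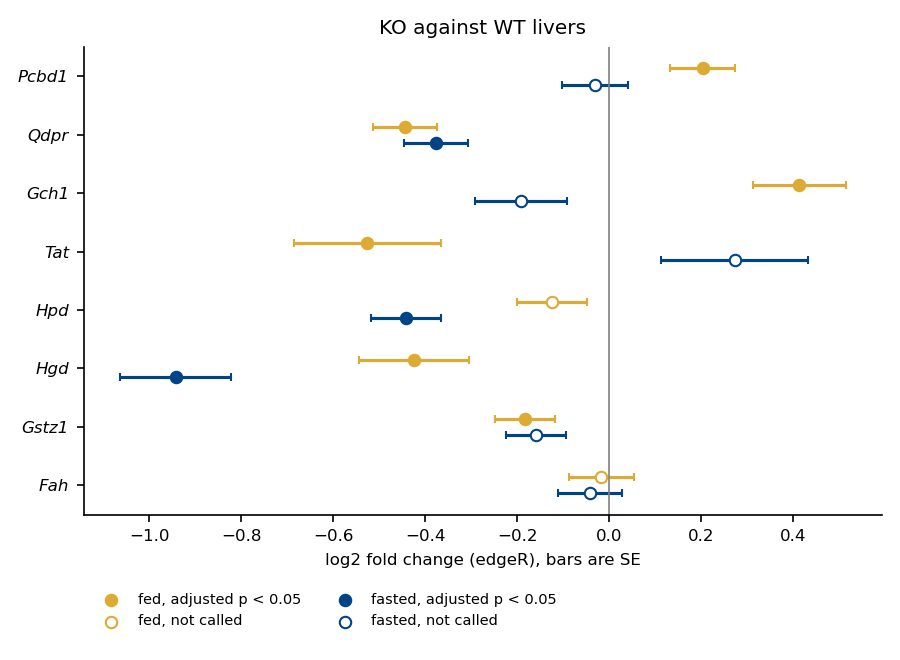
Log2 fold change of each gene between KO and WT in fed and in fasted livers, with SE as bars and filled points for edgeR adjusted p under 0.05. Qdpr and Hgd are lower in KO in both states, and Gch1 and Pcbd1 are higher in fed KO alone among the called values.

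Fasting moved the genes of the pathway in both directions. In WT livers Hpd, Hgd and Gch1 rose and Qdpr, Pcbd1 and Fah fell. Hpd gained most, from 1548 to 1860 CPM in fed WT to 2884 to 3164 in fasted WT (log2 fold change 0.78 ± 0.08, edgeR adjusted p = 2.8e-07). Hgd rose by 0.52 ± 0.12 (adjusted p = 0.00229) and Gch1 by 0.27 ± 0.10 (adjusted p = 0.0423), both on the log2 scale by edgeR. The 2 enzymes that recycle the cofactor went down: Qdpr by -0.74 ± 0.07 (edgeR adjusted p = 1.67e-07) and Pcbd1 by -0.52 ± 0.07 (adjusted p = 1.37e-05). For both, every fasted WT library was below every fed WT library. Fah fell by 0.20 on the log2 scale, with SE 0.07 and edgeR adjusted p = 0.0362. Tat, at 0.41 ± 0.16, narrowly missed the threshold with adjusted p = 0.0577, and DESeq2's Wald test called it (adjusted p = 0.0272). Across all tested genes 16.2% were called higher and 18.3% lower, beside 3 and 3 of these 8. The calls of Gch1 and Fah were lost without the 2 fasted WT libraries that held pancreatic transcripts. Single libraries ended them too. The call of Gch1 was lost without fed WT replicate 1, 3 or 4 or fasted WT replicate 1 or 2 (edgeR adjusted p 0.0765 to 0.165). That of Fah was lost without fed WT replicate 1, 3 or 4 or fasted WT replicate 2, 3 or 4 (edgeR adjusted p 0.0589 to 0.107).

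In KO livers Tat rose more than any other of the 8 genes on fasting. The fed KO libraries had 1350 to 2682 CPM and the fasted KO libraries 4090 to 4712, a 2.308-fold rise with no overlap (log2 fold change 1.21 ± 0.16, edgeR adjusted p = 1.83e-05). Hpd rose by 0.46 ± 0.08 on the log2 scale (edgeR adjusted p = 0.000106). Hgd did not follow: its log2 fold change was 0.00 ± 0.12 (adjusted p = 0.99), and the fasted KO libraries lay on both sides of the fed KO range. Pcbd1 (-0.76 ± 0.07, edgeR adjusted p = 1.95e-07) and Qdpr (-0.68 ± 0.07, adjusted p = 6.43e-07) fell, and all fasted KO libraries were below the fed KO ones for each. Gch1 at -0.33 ± 0.10 (adjusted p = 0.0133) and Fah at -0.22 ± 0.07 (adjusted p = 0.0164) fell as well. The call of Gch1 was lost without fed KO replicate 3 or fasted KO replicate 4 (adjusted p 0.0529 and 0.053), and that of Fah without fasted KO replicate 3 (adjusted p = 0.0596). Gstz1 passed the test in neither genotype, at 0.02 in WT and 0.04 in KO. Of the 8 genes 2 were higher and 4 lower, against 21.1% and 20.3% of all tested genes.

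**Figure D4:**
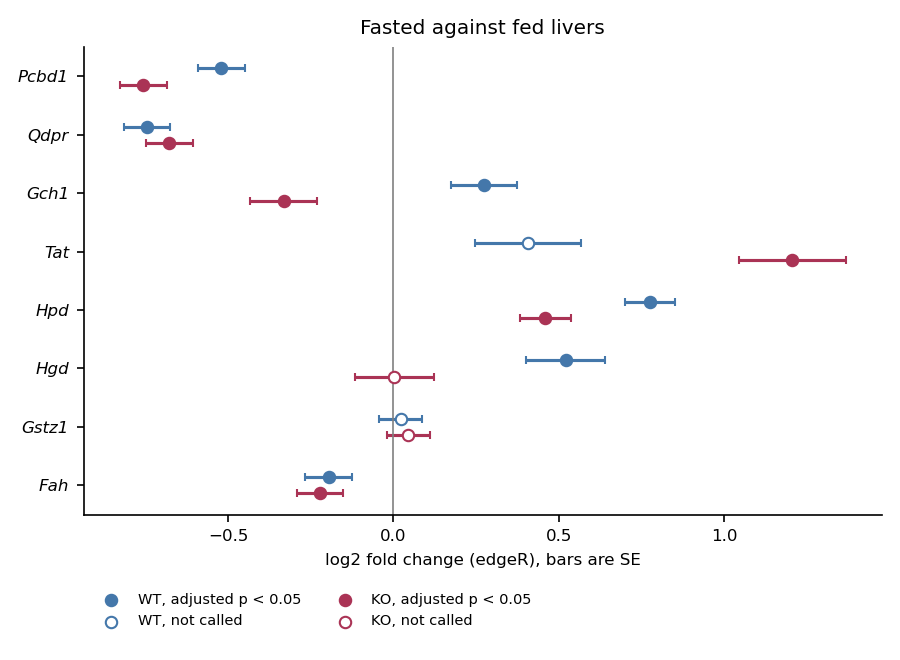
Log2 fold change of each gene between fasted and fed livers in WT and in KO, with SE as bars and filled points for edgeR adjusted p under 0.05. Qdpr and Pcbd1 fall in both genotypes, Hpd rises in both, and Gch1 rises in WT and falls in KO.

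Whether the genotype difference itself changed with fasting was tested as an interaction, the KO minus WT difference in fasted livers less that in fed livers. Among all tested genes 1.07% had a higher and 0.633% a lower value by this test, and of the 8 genes only Gch1 passed it. Gch1 had 162.2, 140.1, 126.3 and 130.6 CPM in fasted WT and 135.0, 130.6, 124.8 and 99.13 in fasted KO, groups that overlapped, unlike the fed ones. Its interaction was -0.61 ± 0.14 on the log2 scale (edgeR adjusted p = 0.0384). The call was lost on leaving out any of 11 of the 16 libraries (adjusted p 0.0505 to 0.0875), and without fasted WT replicates 2 and 4 together (adjusted p = 0.0779). Tat had the largest interaction of the 8 at 0.80 ± 0.23, with edgeR adjusted p = 0.0837, and it passed without fed KO replicate 2 (1.002, adjusted p = 0.00656). Hgd had -0.52 ± 0.17 with adjusted p = 0.128, and passed without fasted KO replicate 1 (-0.68, adjusted p = 0.0339). Hpd had -0.32 ± 0.11 with adjusted p = 0.143. For Qdpr it was 0.07 with adjusted p = 0.795.

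**Figure D5:**
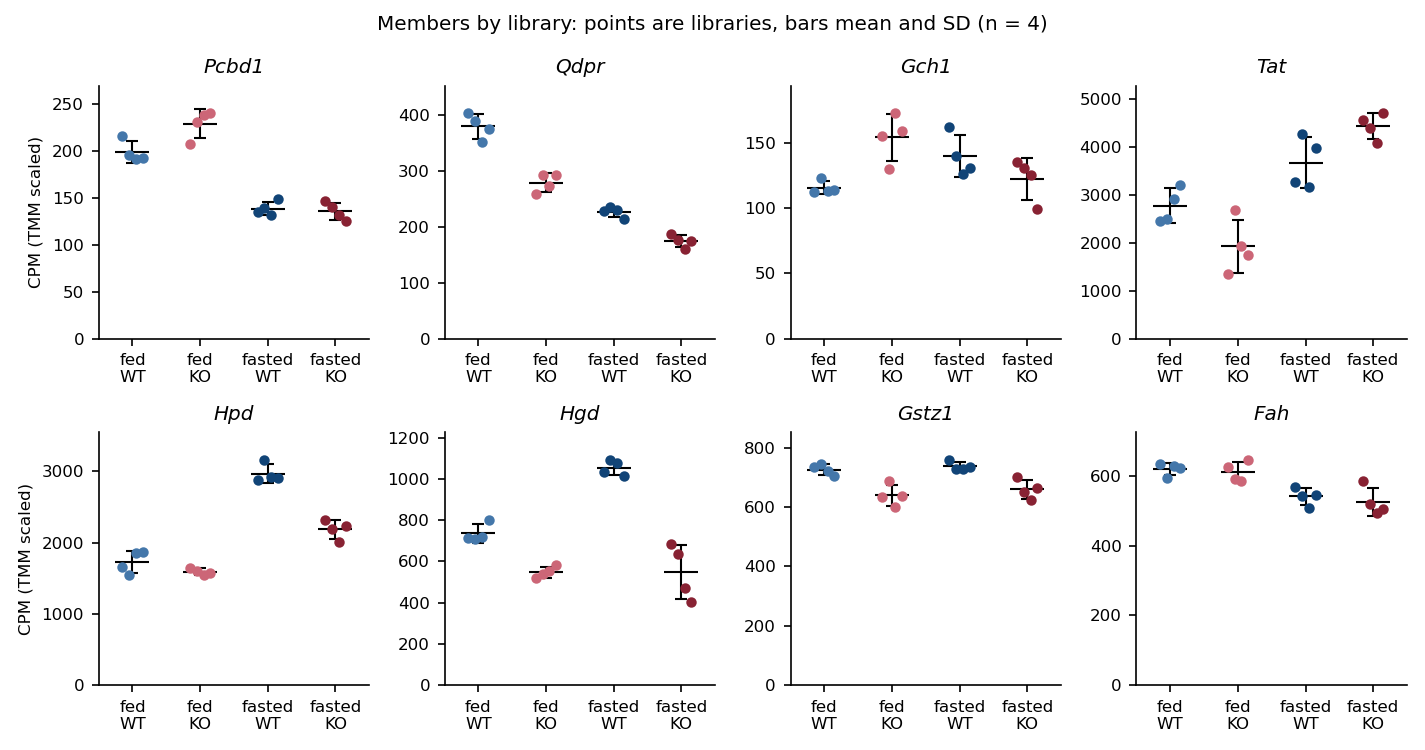
CPM of each of the 8 genes in all 16 libraries; points are libraries and bars the mean and SD of 4 libraries. Hgd is split between WT and KO in both states, and Tat in fasted KO livers, at 4090 to 4712 CPM, lies above all fed libraries.

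The genes around the pathway were read from lists of known function. Among the biopterin partners, Pts and Spr complete the synthesis of the cofactor, Gchfr encodes a regulator of GTP cyclohydrolase, and Dnajc12 a co-chaperone of the aromatic amino acid hydroxylases. Of the 5 genes on this list, 3 were lower and 0 higher in fed KO and 4 were lower in fasted KO, where 16.9% and 14.5% of all tested genes were called lower. Dnajc12 fell most, with log2 fold changes of -0.50 ± 0.14 (edgeR adjusted p = 0.0122) in fed and -0.89 ± 0.15 (adjusted p = 0.000183) in fasted livers. Pts had -0.35 in fed KO and -0.32 in fasted KO, and Gchfr had -0.39 and -0.44, all called lower. The list's median was -0.35 in fed and -0.40 in fasted livers, beside -0.01 and 0.01 for all genes. With library totals alone 0 of the 5 were called lower in fed and 2 in fasted livers. The fed call of Dnajc12 was also lost without fed WT replicate 2.

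Of 12 enzymes related to those of tyrosine breakdown, 9 were tested and Hpdl, Th and Tyr were not. In fed KO 1 was higher and 3 were lower (14.0% and 16.9% of all tested genes), and in fasted KO 1 was higher and 4 were lower (13.8% and 14.5%). The direction of these counts turned with library totals, which gave 3 higher and 1 lower in fed KO and 3 higher and 0 lower in fasted KO. Mif, a tautomerase able to use phenylpyruvate, was higher in fed KO by 0.54 ± 0.11 (edgeR adjusted p = 0.00105), and Fahd2a, a relative of Fah, was lower in fed KO, at -0.52 ± 0.10 (edgeR adjusted p = 0.000513). In fasted KO Fahd2a had -0.30 ± 0.09 (adjusted p = 0.0245), a call lost in 8 of 16 alternatives, among them library totals (-0.11, adjusted p = 0.415), no filter, and leaving out fasted WT replicate 1, 3 or 4 or fasted KO replicate 2 or 3.

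The pathway ends in fumarate and acetoacetate, and 7 genes handle these and the ketone bodies. Only Bdh1 was called in fed KO (0.49 ± 0.08, edgeR adjusted p = 0.000248). On fasting 5 were higher and 1 was lower in each genotype, where 16.2% and 18.3% of all tested genes were called in WT and 21.1% and 20.3% in KO. With library totals 3 were higher in KO, since Fh1 (edgeR adjusted p = 0.0627) and Bdh1 (adjusted p = 0.0987) missed the threshold. Aacs, which activates acetoacetate for lipid synthesis, fell, with log2 fold changes of -3.25 and -2.09.

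Carriers of aromatic amino acids included genes called in each direction in KO livers. Slc3a2, the heavy chain that partners several amino acid transporters, had means of 38.52 CPM in fed WT, 118.2 in fed KO, 34.44 in fasted WT and 152.9 in fasted KO. Its log2 fold changes were 1.62 ± 0.11 in fed (edgeR adjusted p = 6.37e-09) and 2.15 ± 0.11 in fasted livers (adjusted p = 2.68e-10). Slc7a5, a light chain that pairs with it, rose by 0.65 and 0.88, and its fed call was lost without fed WT replicate 2 or fed KO replicate 2. Slc16a10, which carries aromatic amino acids down their gradient, fell, at -0.45 and -0.63. Of the 6 tested genes of this list 3 were higher and 2 lower in fed KO, and 3 were higher and 1 lower in fasted KO. The shares of all tested genes were 14.0% and 16.9% in fed and 13.8% and 14.5% in fasted livers.

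Transcription factors of the hepatocyte were mostly below the threshold between genotypes: 0 of 12 were called in fed livers and 1 in fasted livers, Ppargc1a at -0.87 ± 0.28 (edgeR adjusted p = 0.0321). That call was lost in 10 of 16 alternatives, among them library totals (adjusted p = 0.0655), no filter, and leaving out fasted WT replicate 1, 2 or 4 or fasted KO replicate 3 or 4. Of 13 glucocorticoid-responsive genes 2 were higher and 3 lower in each state, near the shares of all tested genes (14.0% and 16.9% in fed, 13.8% and 14.5% in fasted livers). Sgk1 was higher by 1.23 in fed and 2.92 in fasted KO, while Pck1 was lower, at -0.75 and -0.62. In the kynurenine pathway of tryptophan, another aromatic amino acid, 6 of 10 genes were lower in fed KO and 7 of 10 in fasted KO, beside 16.9% and 14.5% of all tested genes, with medians of -0.72 and -0.53, and these counts were the same with library totals. In fed KO the log2 fold change was -1.10 for Aadat, -0.78 for Haao and -0.79 for Tdo2, which opens the indole ring. Kyat1, an aminotransferase, was the 1 member of that list called higher, at 1.14 ± 0.10 in fed and 1.38 ± 0.10 in fasted KO.

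For the 2 genes whose group means spanned at least 2-fold, Qdpr and Tat, the closest patterns over the 16 libraries were sought among 10453 genes by the root mean square difference of centred log2 CPM. For Qdpr these were Camk1d at 0.095, Lactb2 at 0.096 and Tmed9 at 0.107, beside a spread of 0.417 for Qdpr itself. For Tat they were Pllp at 0.199, Zfp672 at 0.214 and Zfp213 at 0.221, beside 0.518 for Tat itself. The nearest genes depended on the measure, since 0 of 3 were shared for either gene when group means replaced libraries.

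The genes and their annotation on GRCm38 (GENCODE M21) are as follows, each protein coding. Pcbd1 lies on chromosome 10 from 61089331 to 61094324, Qdpr on chromosome 5 from 45434021 to 45450236, Gch1 on chromosome 14 from 47153895 to 47189413 and Tat on chromosome 8 from 109990437 to 109999803. Hpd lies on chromosome 5 from 123171807 to 123182727, Hgd on chromosome 16 from 37580153 to 37632020, Gstz1 on chromosome 12 from 87147165 to 87164723 and Fah on chromosome 7 from 84585159 to 84606722. Gstz1 shares 465 exon bases with Pomt2 on the opposite strand, a gene at 18.42 to 27.45 CPM, and Qdpr shares 332 with the antisense gene Gm42413, at no more than 0.05074 CPM. The strand setting of the counting is not given in the sources used here, so reads from these shared bases cannot be assigned with certainty.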

How the data were processed

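Liver RNA was sequenced as 16 TruSeq Stranded mRNA libraries, per the labels' protocols. The authors deposited 1 table of whole-number read counts per gene. The submitters' processing notes name cutadapt 1.8, STAR 2.5.3a, HTSeq 0.9.1 and build GRCm38. The table's 5 summary lines were left out: multi-mapped reads were 32% to 45.8% of all counts, reads in no feature 2.98% to 4.29% and ambiguous reads 1.05% to 1.65%. The multi-mapped share differed by genotype. It was 41.5% to 45.8% in fed WT and 32% to 39.3% in fed KO. In fasted livers it was 40.4% to 45.7% in WT and 32.2% to 34.8% in KO. Every KO library lay below every WT library, and the bearing of this on the genotype differences was not tested.

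Counts were fitted with edgeR 4.0.16 in R 4.3.3 (filterByExpr, TMM, robust quasi-likelihood, 1 coefficient per group, 12 residual degrees of freedom, common biological coefficient of variation 0.138). Fold changes used edgeR's prior count of 0.125 and log2 CPM a prior count of 2. The SE of a log2 fold change was worked back from the test, as its absolute value divided by the square root of the F statistic. After ±, log2 fold changes carry this SE and levels carry the SD. Alternatives were DESeq2 1.42.0, other scalings, no filter, no robust step, a replicate block, only the libraries compared, a threshold of 0.01 and leaving out libraries. On simulated counts for fed KO minus fed WT (13691 genes tested), the fit recovered 33 of 67 genes at 1.5-fold, 59 of 67 at 2-fold and 65 of 66 at 4-fold. It also called 6 unchanged genes. Only these sets were changed, in random directions, with the same spread for every gene. The data gave far more calls, 1948 higher and 2351 lower in fed KO, so these rates need not hold there. The simulation did not test the scaling between KO and WT libraries. Replicates differed beyond counting noise (chi-square per gene 6.31 to 83.9). Named genes were the 8 members, Slc25a47, up to 4 called genes per list and contrast with the smallest p, and the 3 nearest in pattern. The members and lists were chosen with earlier results of these data known. Some genes of the lists are counted but not reported here by name.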

Additional observations from a re-analysis of the deposited data

Results flagged for a closer look

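Each gene's 4 values per group were checked for 1 library standing apart from the other 3 by Dixon's criterion, for the 8 genes and Slc25a47 in 36 groups. Chance flags about 1 in 20 such groups, and 3 were flagged. Gch1 was high in fed WT replicate 2 at 122.7 CPM. Hpd was high in fasted WT replicate 2 at 3164 CPM, a library that also held pancreatic transcripts. Hgd was high in fed WT replicate 4 at 802.6 CPM. The genotype effect on Gch1 differed between fasted and fed livers by -0.605 on the log2 scale (edgeR adjusted p = 0.0384).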

How the results depend on the processing

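Of the 8 genes, 6 were called in fed KO against fed WT. That count was 3 with no filter and 2 at a threshold of 0.01, and 3 to 5 on leaving out 1 library each. The counts over all genes moved too. The main fit called 1948 higher and 2351 lower of 13905, and no filter 1607 and 2172 of 25622. A threshold of 0.01 called 1074 higher and 1375 lower. Leaving out 1 library gave 1430 to 2025 higher and 1772 to 2467 lower. The interaction, with 1 call, gave 3 by DESeq2's Wald test, 0 at a threshold of 0.01, 0 without the 2 libraries with pancreatic transcripts and 0 to 2 on leaving out 1 library. Over all genes the main fit called 149 higher and 88 lower interactions of 13905, and the Wald test 286 and 243 of 13095. A threshold of 0.01 called 16 higher and 7 lower. Without the pancreatic libraries 39 were higher and 33 lower of 14345. Leaving out 1 library gave 51 to 352 higher and 34 to 171 lower. Log2 fold changes that turned sign with library totals were, in fed KO minus fed WT, Hpd 0.097, Gstz1 0.039 and Fah 0.204; in fasted KO minus fasted WT, Pcbd1 0.153, Gstz1 0.026 and Fah 0.142; on fasting, Gstz1 -0.023 in WT and -0.036 in KO and Hgd -0.084 in KO; and the Gstz1 interaction -0.013. Hgd on fasting in KO also turned to -0.003 with DESeq2 size factors, -0.003 by DESeq2's test, -0.001 with no filter and -0.010 with the replicate block. No filter turned Gstz1 on fasting in WT to -0.007 and the Fah interaction to 0.001. Fitting only the libraries compared turned Fah in fed KO to 0.004, and omitting the pancreatic libraries turned Pcbd1 in fasted KO to 0.023. Of the values that turned with library totals, Gstz1 in fed KO was called with TMM and not with library totals, and Fah in fed KO the other way round. The cause was not tested. Leaving out 1 library gave ranges that crossed 0 for Fah in fed KO (-0.044 to 0.004), the Fah interaction (-0.117 to 0.005), Gstz1 on fasting in KO (-0.002 to 0.082), the Gstz1 interaction (-0.043 to 0.060), Hgd on fasting in KO (-0.137 to 0.125), Pcbd1 in fasted KO (-0.094 to 0.006) and the Qdpr interaction (-0.002 to 0.108).

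The replicate block left 5 genes called in fed KO (Pcbd1 lost, edgeR adjusted p = 0.0511) and 7 on fasting in WT (Tat gained, edgeR adjusted p = 0.0425). Of all 13905 genes it called 2003 higher and 2337 lower in fed KO. On fasting in WT it called 2239 higher and 2579 lower. The labels do not say that numbers mark a shared source. Correlations of the deviations of 24 same-numbered pairs ran from -0.174 to 0.251, and the same number correlated best in 20 of 48 comparisons, where an even split gives 12. The summed macrophage markers were highest in replicate 1 of every group. They reached 446.7 CPM in fed WT, 439.5 in fed KO, 416.1 in fasted WT and 464.4 in fasted KO. Whether the numbers mark a shared batch or order was not tested. The main fit did not pair the libraries by number.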

Other observations

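The fasted KO libraries differed among themselves in the remaining level of Slc25a47, which was 330.5, 315.1, 236.7 and 163.5 CPM in replicates 1 to 4. Hgd had 682.4, 635.8, 472.5 and 404.4 CPM in the same libraries, and Gch1 had 135.0, 130.6, 124.8 and 99.13. The order of the 4 libraries was the same for each, a pattern noticed after the values were seen and not tested, since 4 libraries are too few. Pcbd1, which was not called in fasted KO, had this order too, while Qdpr, Tat, Hpd, Gstz1 and Fah did not. The summed macrophage markers fell in the same order in these libraries, at 464.4, 386.9, 341.3 and 301.9 CPM. The sums of the other marker sets did not. This order is also that of the replicate numbers, and what lies behind it was not tested. In replicates 1 to 4 of fed KO the order was not shared. Slc25a47 had 81.82, 122.7, 153.4 and 146.2 CPM there. Hgd had 517.5, 540.8, 552.6 and 580.3, and Gch1 had 155.0, 129.4, 172.6 and 158.8.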
